A study of Mus musculus with 36 samples.

Results

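The liver X receptor (LXR) agonist T0901317 moved 507 genes in opposite directions in the livers of W/W mice and of W/F mice, which carry 1 copy of LXRalpha with tryptophan 441 replaced by phenylalanine. The comparison took the T0901317 response in W/F minus the response in W/W and used 16 of the 36 liver libraries of the study, 4 in each of 4 groups. The groups were W/W with vehicle, W/W with T0901317, W/F with vehicle and W/F with T0901317. All 16 came from male mice aged 11 to 12 weeks that ate a diet promoting metabolic dysfunction-associated steatohepatitis (MASH; Teklad TD.96121) for 4 weeks and received, after the first 2 weeks, a daily gavage of vehicle or of T0901317 at 10 mg/kg. W/W mice carry tryptophan on both copies and served as controls. F/F mice carry phenylalanine on both copies. They are used below for comparison, as are the W/F and W/W mice of a separate cohort on normal chow. These libraries did not enter the 2 responses that chose the genes, but they did enter the shared estimate of spread behind the calls. The mutation was made with CRISPR in the mouse genome and is not restricted to one cell type. The mouse strain is not given in the sources used here. The labels number the libraries 1 to 4 within a group and do not say whether each is a single mouse, so p-values measure the spread between these libraries.

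LXRalpha is a nuclear receptor that is activated by oxidised cholesterol and binds DNA with the retinoid X receptor. In liver and macrophages it turns on genes for cholesterol efflux and excretion (Abca1, Abcg1, Abcg5, Abcg8), for phospholipid and lipoprotein remodelling (Lpcat3, Pltp, Lpl) and, through Srebf1, for fatty acid synthesis. Tryptophan 441 lies near the carboxyl end of the receptor, in the activation helix that agonists hold in the position that recruits coactivators. The deposited design text names the gene of LXRalpha as Nr1h2, whereas the mouse gene of LXRalpha is Nr1h3 and Nr1h2 encodes LXRbeta. The coding sequence of both genes around codon 441 is shown because it tells which of them has tryptophan at that position. Capitals mark codon 441, counted from the start codon, in GENCODE M21 transcripts on GRCm38, both read on the minus strand.
Nr1h3 codon 441, chr2:91184351-91184353: ctgtctgagatcTGGgatgtccacgag
Nr1h2 codon 441, chr7:44550003-44550005: ttgctgtccgagATCtgggatgtgcac
Codon 441 is TGG, the tryptophan codon, in the 445-codon transcripts of Nr1h3, where it lies in exon 10. It is ATC in the 446-codon transcripts of Nr1h2, whose tryptophan codon follows directly. A value per gene cannot show the edited codon, so expression of Nr1h3 is no check of the genotype labels. Nr1h3 stood at 83.1, 105, 106 and 101 TPM (transcripts scaled by length to a sum of 1e+06 per library) in the 4 W/W vehicle libraries and at 87.8, 82.9, 90.7 and 85.9 TPM with T0901317. In W/F it stood at 120.0, 101, 101 and 110.1 TPM with vehicle and 82.0, 106, 104 and 92.5 TPM with T0901317, so the groups of each genotype overlapped. Its difference of responses was 0.01 ± 0.15 (SE) on the log2 scale (limma, adjusted p = 0.963), and 0.67 after each library was rescaled as described below (adjusted p = 2.05e-04), so the call depends on the scaling.

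Library depth, worked out from the steps between small TPM values, was 21.3 to 34.5 M reads (M, 1e+06), and the depths of the 4 groups overlapped in part. Within-group correlation of log2 values lay between 0.962 and 0.987. A pair of libraries stood apart from their groups on the first principal component of all 36 libraries, which held 59.5% of their variance. W/F T0901317 replicate 2 lay at 1.00, against 44.9 to 54.4 for the other W/F T0901317 libraries, and thus nearer to the W/F vehicle libraries at -76.6 to -61.9. W/W T0901317 replicate 2 lay at 26.0, against 44.6 to 52.5 for the others of its group. For the lists described below, counts of reversing genes are given without either library where leaving it out moved them by over 1.5 times or by 2 genes or more. Summed expression of 26 hepatocyte genes was 114990 to 144060 TPM in W/W vehicle, 119840 to 132180 TPM in W/W T0901317, 86348 to 98098 TPM in W/F vehicle and 95494 to 128030 TPM in W/F T0901317 libraries, and none of the 26 was at 0 throughout a group.

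The 2 genotypes answered the agonist very differently. A linear model across 16638 genes on log2(TPM + 1), with a Benjamini-Hochberg threshold of 0.05, called 1310 genes higher (7.87%) and 484 lower (2.91%) with T0901317 in W/W, in all 10.8% of genes. In W/F it called 1097 higher (6.59%) and 9874 lower (59.3%), in all 65.9%, on values as deposited. The difference of responses itself passed in 9726 genes (58.5%), 877 higher and 8849 lower in W/F than in W/W. TPM sum to a fixed total, and the median gene's difference was -0.54 on the log2 scale. After each library was divided by its median ratio to an average library, called rescaling below, which brought that median to -0.05, the difference passed in 7297 genes (43.9%), 3281 higher and 4016 lower. Rescaled values gave 1339 genes higher and 919 lower in W/W, and 3909 higher (23.5%) and 4547 lower (27.3%) in W/F. The large excess of lower calls in W/F thus depended on the scaling. The library factors were 1.14 to 1.32 in W/F vehicle and 0.689 to 0.919 in the other 12. Whether these factors reflect composition, RNA content or both was not tested.

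A gene was taken to reverse when both responses passed with opposite signs under both scalings, which left 362 genes that rose in W/W but fell in W/F (2.18% of genes tested) and 145 that fell in W/W but rose in W/F (0.871%), in all 3.05% of genes. As deposited alone the numbers were 758 (4.56%) and 147 (0.884%), and after rescaling alone 480 (2.88%) and 441 (2.65%). Genes called in the same direction in both genotypes numbered 140 up and 141 down as deposited, and 373 up and 111 down after rescaling. Across all genes the 2 responses, which share no library, had a Pearson r of -0.22 as deposited and -0.23 after rescaling. Genes are not independent replicates, so this is a description. The values that chose the 507 genes are given below without a test. Just inside the rule lay Apcs (largest adjusted p of its 4 calls, 0.0497) and Hsd3b5 (0.0494), and just outside it Serpina1d (0.0504) and Gm4963 (0.0504).

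**Figure D1:**
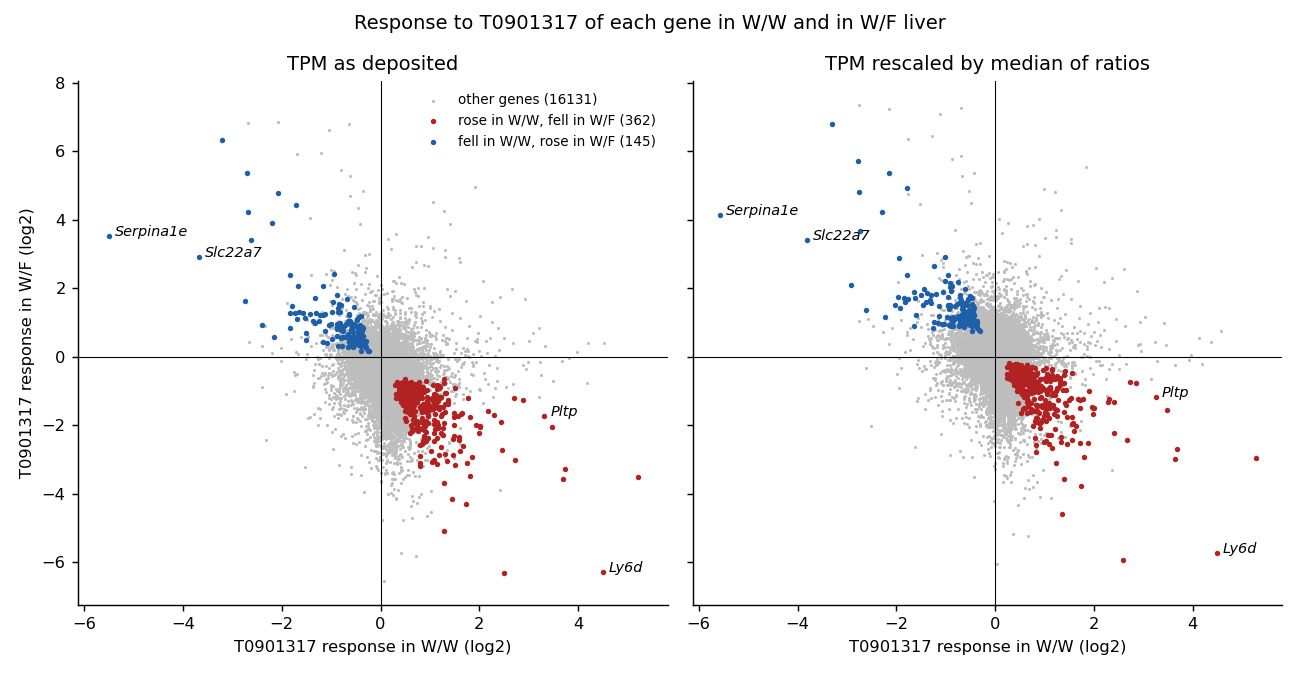
Fitted T0901317 response on the log2(TPM + 1) scale in W/W (horizontal) against W/F (vertical), 1 point a gene, as deposited (left) and rescaled (right). Red points are the 362 genes that rose in W/W but fell in W/F, and blue points the 145 that fell in W/W but rose in W/F; Ly6d and Serpina1e lie far out in each direction.

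The median gene of the 362 rose by 0.74 in W/W and changed by -1.26 in W/F on the log2 scale, or 0.71 and -0.76 after rescaling. The median gene of the 145 had -0.65 in W/W and 0.79 in W/F, or -0.72 and 1.31. The vehicle and T0901317 libraries did not overlap in W/W for 332 of the 362 and 135 of the 145, beside 16.5% of all genes. In W/F they did not overlap for 356 and 116, beside 57.1% of all genes. The rule chose the genes on these same values, so the shares are a description and no support. The mean was at least 1 TPM in all 4 groups for 294 of the 362 and 129 of the 145. Leaving out W/F T0901317 replicate 2 gave 445 and 158 genes, holding 347 of the 362 and 144 of the 145. Without W/W T0901317 replicate 2 the counts were 249 and 93, and without W/W vehicle replicate 1 they were 229 and 127. No gene of the 507 reversed the other way in any of the 22 alternatives run. These refits used all or most of the values that chose the genes, so an opposite call was hardly possible.

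Ly6d, a small lipid-anchored surface protein known from squamous epithelium and lymphoid progenitors, ranked first of the genes that rose in W/W but fell in W/F. Genes were ranked by the smallest of their 4 absolute responses (2 genotypes, 2 scalings). The gene lies at chr15:74762056-74763620 (GRCm38, minus strand). Values are given for vehicle and then for T0901317, replicates 1 to 4. It stood at 2.91, 5.85, 4.74 and 3.17 TPM with vehicle and 123, 169, 126 and 62.2 TPM with T0901317 in W/W, a response of 4.50 ± 0.51 (SE) on the log2(TPM + 1) scale. In W/F it stood at 565, 303, 591 and 929 TPM with vehicle and 4.16, 32.1, 3.06 and 2.81 TPM with T0901317, a response of -6.27 ± 0.51. The groups did not overlap in either genotype, and W/F T0901317 replicate 2, at 32.1 TPM, lay above the other 3 of its group. Sprr1a, a cornified envelope protein of squamous epithelium at chr3:92483952-92485895, had 0.896, 0.502, 0.5 and 0.609 TPM with vehicle and 4.24, 26.8, 5.70 and 6.19 TPM with T0901317 in W/W. It had 109, 83.3, 112 and 182 TPM with vehicle and 0.22, 1.96, 0 and 0.354 TPM with T0901317 in W/F, a response of -6.31 ± 0.58 against 2.499 ± 0.58 in W/W. Of its 4 W/F T0901317 libraries, 3 were below the lowest W/W vehicle library, with replicate 2 again the highest. Of 16 squamous and neuropeptide genes listed, 7 were expressed enough to test. The difference of responses was lower in W/F for 6 of them and higher for none, beside 53.2% and 5.27% of all genes. Ly6d and Sprr1a were the 2 of the 7 that reversed, beside 2.18% of all genes in that direction. Slpi, a secreted inhibitor of leukocyte proteases, moved alike: its W/W response was 1.73 ± 0.43 and its W/F response -4.29 ± 0.43, from 65.8 to 90.9 TPM with vehicle to 1.37 to 15.6 TPM with T0901317 in W/F.

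**Figure D2:**
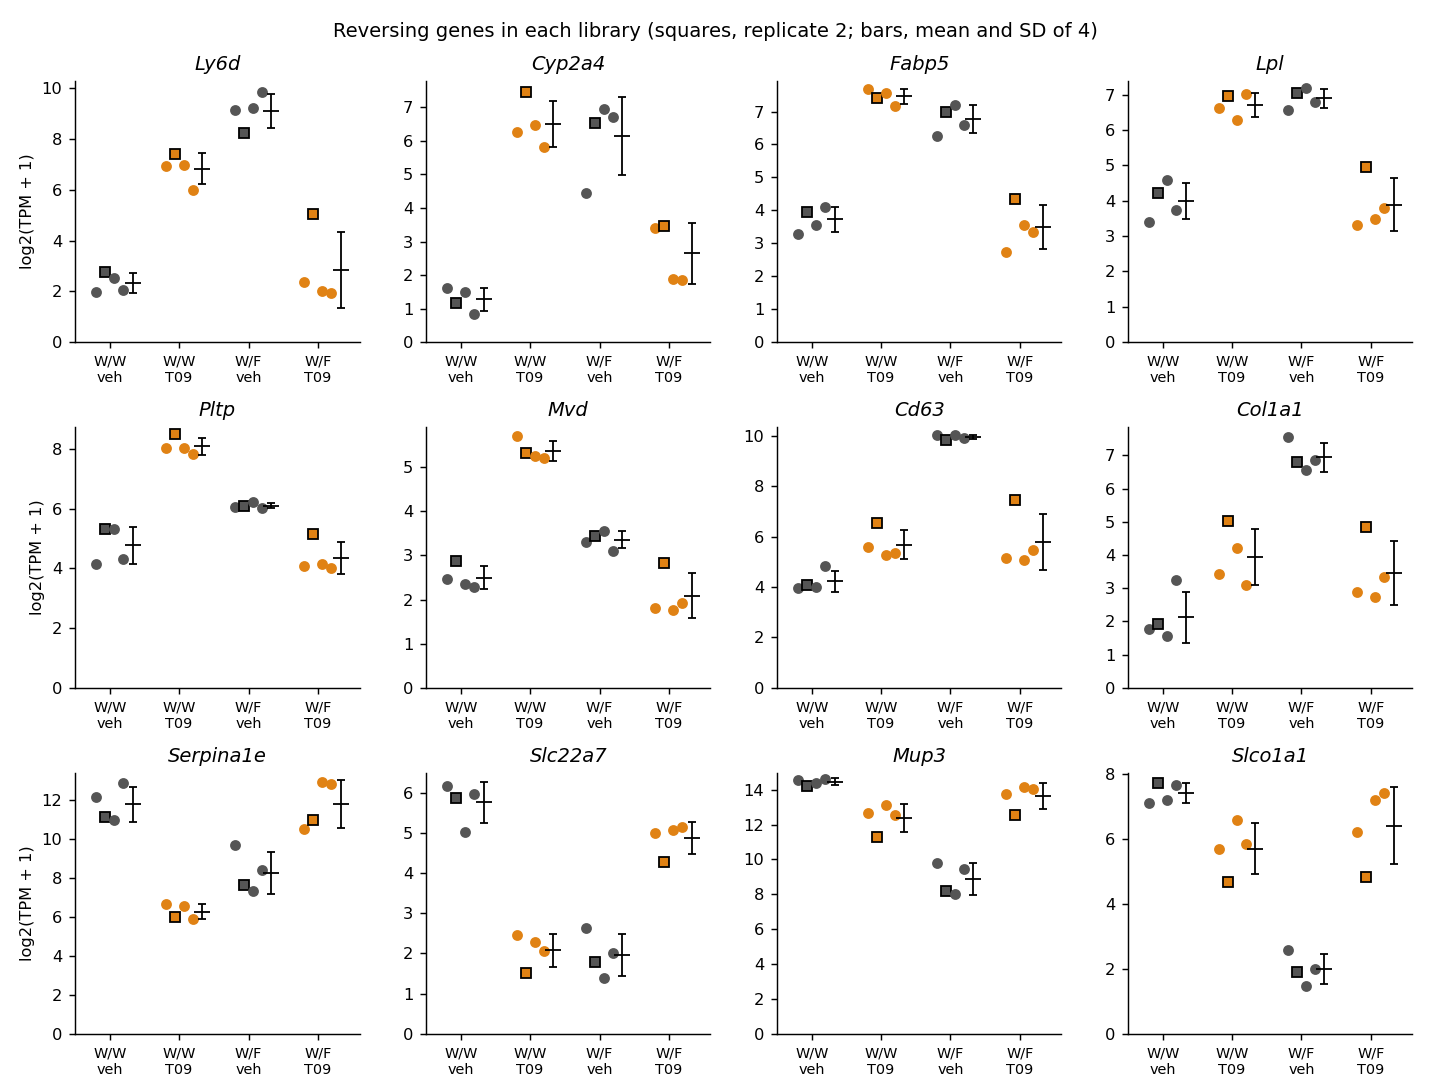
Expression of 12 reversing genes as log2(TPM + 1) in each of the 16 libraries, by genotype (W/W, W/F) and treatment (veh, vehicle, grey; T09, T0901317, orange). Squares are replicate 2 of each group, and bars are the mean and SD of 4; the first 8 genes rise in W/W and fall in W/F, the last 4 do the reverse, and the orange squares in W/F lie above the rest of their group for Ly6d, Pltp and Cd63.

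From the LXR target list, 3 of 23 genes were among those that rose in W/W but fell in W/F, beside 2.18% of all genes. All 3 act on lipids outside or at the surface of cells. The number that reversed was 5 without W/F T0901317 replicate 2 and 3 without W/W T0901317 replicate 2. Pltp, which moves phospholipid between lipoproteins (chr2:164839518-164857711), stood at 16.9, 38.7, 39.0 and 19.1 TPM with vehicle and 259, 363, 258 and 227 TPM with T0901317 in W/W. In W/F it stood at 65.6, 66.6, 73.9 and 64.5 TPM with vehicle and 15.9, 35.0, 16.8 and 15.3 TPM with T0901317. Its responses were thus 3.32 ± 0.37 in W/W and -1.74 ± 0.37 in W/F, with no overlap between treatments in either genotype. Exons of Ctsa on the other strand cover 19.3% of its exons, and the strand setting of the counting is not given in the sources used here. Lpl, the lipase that frees fatty acids from circulating triglyceride (chr8:68880491-68907448), stood at 9.63, 17.6, 23.1 and 12.4 TPM with vehicle and 97.1, 123, 76.3 and 128 TPM with T0901317 in W/W. In W/F it went from 93.9, 130.3, 144 and 109.8 TPM with vehicle to 8.99, 30.2, 10.1 and 12.9 TPM with T0901317. W/F livers on vehicle held as much Lpl mRNA as W/W livers on the agonist, and W/F livers on the agonist as little as W/W livers on vehicle apart from replicate 2. Abcg1, which exports cholesterol to high-density lipoprotein, stood at 5.28, 7.44, 5.25 and 8.07 TPM with vehicle and 13.1, 22.7, 18.1 and 19.3 TPM with T0901317 in W/W. In W/F it stood at 31.3, 42.7, 49.5 and 32.9 TPM with vehicle and 9.27, 31.8, 12.8 and 12.5 TPM with T0901317. Replicate 2 of W/F T0901317, at 31.8 TPM, fell among the W/F vehicle libraries, and the other 3 lay below them. Fabp5, a fatty acid binding protein of macrophages and epithelia (chr3:10012548-10016607), followed the same course, with responses of 3.73 ± 0.36 in W/W and -3.27 ± 0.36 in W/F. It stood at 8.79 to 16.1 TPM with vehicle and 142 to 203 TPM with T0901317 in W/W, and at 75.7 to 147 TPM and 5.73 to 19.4 TPM in W/F.

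The LXR target list as a whole did not share one pattern. Of 23 genes tested, 14 rose and none fell in W/W (beside 7.87% and 2.91% of all genes), whereas 10 rose and 8 fell in W/F (beside 6.59% and 59.3%). The difference of responses was higher in W/F for 6 and lower for 10, beside 5.27% and 53.2% of all genes, or 9 and 8 after rescaling, beside 19.7% and 24.1%. The median W/F response of the list was -0.17 as deposited and 0.42 after rescaling. The sterol exporters of the hepatocyte and the lipogenic regulator Srebf1 responded more in W/F. Abcg5 was at 292, 302, 233 and 332 TPM with vehicle and 319, 448, 344 and 409 TPM with T0901317 in W/W, and at 60.4, 81.3, 69.2 and 65.4 TPM and 181, 226, 226 and 270.4 TPM in W/F. The W/F response exceeded that of W/W by 1.30 ± 0.33 for Abcg5 (limma, adjusted p = 0.00132), by 1.63 ± 0.39 for its partner Abcg8 (limma, adjusted p = 6.57e-04) and by 1.79 ± 0.31 for Srebf1 (limma, adjusted p = 1.33e-05). For all 3 the W/F vehicle libraries were the lowest of the 16, so the larger response began from a lower level. The W/W response of Srebf1 was 0.88, and 0.56 without W/W vehicle replicate 3. Scd1 and Fasn, enzymes of fatty acid synthesis, rose in both genotypes, by 1.51 ± 0.30 and 1.92 ± 0.30 for Scd1 and by 2.67 ± 0.41 and 1.98 ± 0.41 for Fasn. The difference of responses did not pass as deposited for either gene (limma, adjusted p = 0.407 and 0.321), and passed for Scd1 after rescaling (adjusted p = 0.0384). Cyp7a1, the first enzyme of the classical bile acid pathway, had responses of 1.40 ± 0.45 and 1.77 ± 0.45; its W/W call was lost without W/W vehicle replicate 3 and without any of W/W T0901317 replicates 1, 3 and 4.

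Pnpla3 and Scd2, a lipid droplet lipase and a desaturase, rose steeply in W/W, and their response was lower in W/F. Pnpla3 went from 2.16, 3.34, 0.521 and 4.49 TPM to 97.7, 66.6, 76.2 and 62.8 TPM in W/W, and stood at 1.63, 1.09, 1.68 and 0.708 TPM with vehicle and 2.38, 1.38, 1.42 and 2.79 TPM with T0901317 in W/F. Its difference of responses was -4.14 ± 0.47 (limma, adjusted p = 3.15e-08). Scd2 went from 2.23, 2.73, 2.27 and 3.37 TPM to 68.2, 91.9, 65.1 and 43.3 TPM in W/W, and stood at 18.9, 21.0, 19.7 and 15.2 TPM with vehicle and 6.76, 19.2, 8.99 and 10.1 TPM with T0901317 in W/F. The W/F groups of both genes overlapped. Scd2 was called lower in W/F as deposited (-0.77 ± 0.32), which 6 of the 8 refits without 1 W/F library lost, and had a W/F response of -0.21 after rescaling. Abca1 rose by 0.78 ± 0.15 in W/W and had -0.17 ± 0.15 in W/F, or 0.42 after rescaling. Its difference of responses was -0.95 as deposited (limma, adjusted p = 3.50e-04) and -0.30 after rescaling (adjusted p = 0.263), so that call depends on the scaling. Mylip, which marks the LDL receptor for degradation, likewise had a difference of -1.08 (limma, adjusted p = 5.13e-04) that became -0.45 (adjusted p = 0.0798).

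**Figure D3:**
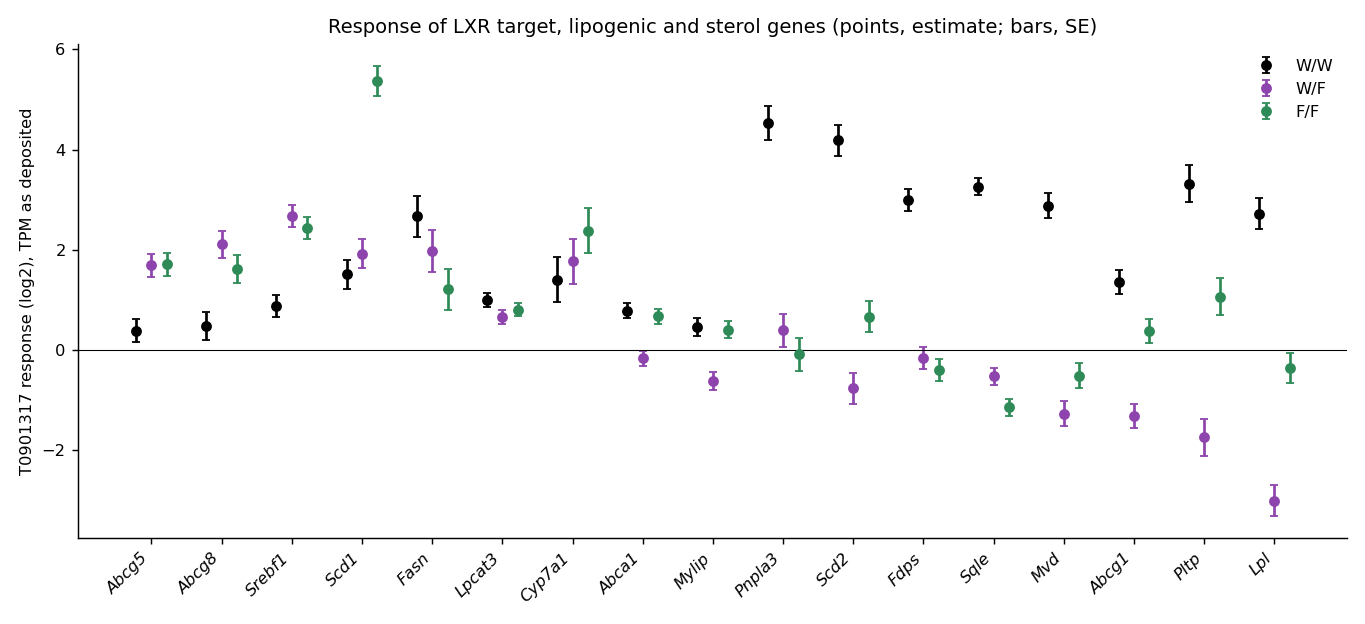
Fitted T0901317 response (log2, TPM as deposited) of 17 LXR target, fatty acid, bile acid and sterol genes in W/W, W/F and F/F, with points for the estimate and bars for its SE. The 7 genes from Abcg5 to Cyp7a1 have estimates above 0 in all 3 genotypes, whereas Mvd, Abcg1, Pltp and Lpl on the right rise in W/W and fall in W/F.

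Most genes of the cholesterol synthesis and uptake list rose with the agonist in W/W and had a lower response in W/F. Of 24 genes tested, 22 rose and none fell in W/W, beside 7.87% and 2.91% of all genes. In W/F 3 rose and 4 fell, beside 6.59% and 59.3%. The difference of responses was lower in W/F for 18 and higher for 1, beside 53.2% and 5.27%. After rescaling it was lower for 16 and higher for 2, beside 24.1% and 19.7%. On that scaling 11 rose and 1 fell in W/F, beside 23.5% and 27.3%. The direction of the median W/F response, -0.15 as deposited and 0.36 rescaled, thus depends on the scaling. Mvd, mevalonate diphosphate decarboxylase, was the 1 member that reversed, beside 2.18% of all genes in that direction. It stood at 4.55, 6.32, 4.12 and 3.86 TPM with vehicle and 51.2, 38.8, 37.4 and 36.2 TPM with T0901317 in W/W. In W/F it stood at 8.95, 9.93, 10.8 and 7.62 TPM and 2.52, 6.16, 2.39 and 2.81 TPM. Sqle, squalene epoxidase, rose from 1.90, 3.10, 2.09 and 2.48 TPM to 35.4, 30.9, 30.7 and 27.8 TPM in W/W, and in W/F went from 2.77, 3.29, 2.85 and 2.57 TPM to 1.52, 1.68, 1.52 and 2.02 TPM. W/F livers thus began near the W/W level and did not leave it upward. Its difference of responses was -3.78 ± 0.24 (limma, adjusted p = 2.43e-12), and that of Fdps, farnesyl diphosphate synthase, was -3.15 ± 0.31 (limma, adjusted p = 3.67e-09). Exons of a predicted gene cover 26.7% of those of Fdps. In fatty acid and triglyceride synthesis none of 22 genes reversed, beside 3.05% of all genes, which in a list this short is close to none. In this list 18 rose in W/W (beside 7.87% of all genes), and 8 rose and 3 fell in W/F (beside 6.59% and 59.3%), or 17 and none after rescaling (beside 23.5% and 27.3%). Its difference of responses was lower for 13 and higher for 4 (beside 53.2% and 5.27%), or 8 and 5 after rescaling (beside 24.1% and 19.7%). Thrsp, a lipogenic nuclear protein, differed the other way, by 3.04 ± 0.94 (limma, adjusted p = 0.00658).

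Some genes of lipid-laden macrophages, fibrosis, ductular cells, lysosomes and the cell cycle were among the 362 that rose in W/W but fell in W/F. In bulk liver, a change in the number of cells of a type and a change in RNA per cell cannot be told apart. Of 20 lipid-associated macrophage markers all 20 had a lower difference of responses in W/F, under both scalings, beside 53.2% of all genes lower as deposited and 24.1% rescaled. In the list 9 rose in W/W, 20 fell in W/F, and 7 reversed: Cd63, Cd9, Ctsd, Fabp5, Lipa, Lpl and Spp1. Cd63, a tetraspanin of lysosomes and exosomes, stood at 14.5, 16.003, 15.04 and 27.8 TPM with vehicle and 46.8, 91.1, 38.0 and 39.4 TPM with T0901317 in W/W. In W/F it fell from 1039, 913, 1036 and 950.1 TPM to 34.7, 173, 32.97 and 43.0 TPM. Of the 16 libraries compared the 4 of W/F vehicle stood highest, F/F vehicle libraries stood at 1322 to 1597 TPM, and with the agonist 3 of 4 W/F libraries came down close to the level of W/W with the agonist. Spp1, osteopontin, a secreted matrix protein of macrophages and bile duct cells, gave 55.4, 45.7, 47.2 and 46.4 TPM and 85.2, 155, 87.2 and 123 TPM in W/W and 1526, 1198, 1121 and 1125 TPM and 108, 265, 90.3 and 148 TPM in W/F. A predicted gene on the same strand shares 18.8% of the exons of Spp1. Gpnmb, a lysosomal glycoprotein of lipid-laden macrophages, did not reverse: its W/W response was 0.07 ± 0.53, with 0.482 to 3.05 TPM in the 8 W/W libraries. In W/F it went from 278, 479, 597 and 385 TPM to 1.00, 37.7, 0.931 and 1.74 TPM, a difference of responses of -6.61 ± 0.75 (limma, adjusted p = 2.94e-08).

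The summed level of the macrophage list was 1529.9 to 1947 TPM in W/W vehicle, 2976 to 3725 TPM in W/W T0901317, 8524 to 10613 TPM in W/F vehicle and 1604 to 3171 TPM in W/F T0901317. Resident Kupffer cell markers summed to 561 to 749, 511 to 834, 1848 to 2090.1 and 488 to 1607 TPM in the same order. None of their 17 tested members reversed, beside 3.05% of all genes, which in so short a list is close to none. Monocyte, neutrophil and inflammation genes summed to 99.98 to 254, 108 to 259, 4066 to 5888 and 105 to 1452 TPM. No member was called in W/W and 22 of 24 were called lower in W/F, beside 10.8% and 59.3% of all genes. Their sums did not separate the W/W treatments, whereas the macrophage sums did. Replicate 2 gave the highest W/F T0901317 sum of all 3 lists. Without that library all 20 macrophage markers still had a lower difference, and 22 of 24 inflammation genes did. Without W/W T0901317 replicate 2 the numbers were 20 and 19. Of 27 lysosomal and vacuolar ATPase genes, 26 had a lower difference as deposited (beside 53.2% of all genes) and 18 after rescaling (beside 24.1%). In the list 4 reversed (Cd63, Ctsd, Lipa and Npc2), beside 2.18% of all genes in that direction. The number that reversed was 6 without W/F T0901317 replicate 2 and 3 without W/W T0901317 replicate 2. Npc2 carries cholesterol out of the lysosome and Lipa frees it from its esters.

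All 29 stellate cell and fibrosis genes had a lower difference of responses in W/F (beside 53.2% of all genes), or 27 after rescaling (beside 24.1%). In the list 9 reversed (Col1a1, Col1a2, Col3a1, Col4a1, Col5a1, Col5a2, Loxl2, Sparc and Spon2), beside 2.18% of all genes in that direction. The number that reversed was 10 without W/F T0901317 replicate 2 and 7 without W/W T0901317 replicate 2. Col1a1, the main chain of type I collagen (chr11:94936224-94953042), stood at 2.40, 2.76, 1.96 and 8.44 TPM with vehicle and 9.77, 31.2, 17.4 and 7.63 TPM with T0901317 in W/W. In W/F it fell from 186, 109, 93.1 and 115 TPM to 6.36, 27.5, 5.66 and 9.20 TPM. The W/W groups overlapped, since vehicle replicate 4 lay above T0901317 replicate 4, whereas the W/F groups were far apart. Col3a1 went from 3.99 to 11.2 TPM up to 14.9 to 36.9 TPM in W/W, and from 108 to 148 TPM down to 8.25 to 32.99 TPM in W/F. Timp1, an inhibitor of matrix metalloproteases, did not reverse by the rule. It was at 0, 0.342, 0 and 0.443 TPM with vehicle and 0.738, 2.68, 1.51 and 1.04 TPM with T0901317 in W/W, and its difference of responses was -5.55 ± 0.52 (limma, adjusted p = 1.23e-09). Its W/W response was 1.02 as deposited (limma, adjusted p = 0.06995) and 1.14 after rescaling (limma, adjusted p = 0.0291), so that call depends on the scaling. As deposited it was called once W/F T0901317 replicate 2 was left out. The summed fibrosis list was 156 to 246, 252 to 499, 1174 to 1612 and 254 to 478 TPM in W/W vehicle, W/W T0901317, W/F vehicle and W/F T0901317.

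Of 22 bile duct and ductular reaction markers, 21 had a lower difference of responses (beside 53.2% of all genes), or 20 after rescaling (beside 24.1%). In the list 3 reversed (Anxa2, Spp1 and Tspan8), beside 2.18% of all genes in that direction. The number that reversed was 4 without W/F T0901317 replicate 2 and 1 without W/W T0901317 replicate 2. Anxa2, a membrane binding annexin, stood at 7.44, 8.76, 7.96 and 7.03 TPM and 18.1, 36.4, 15.2 and 17.1 TPM in W/W and 147, 126, 147 and 176 TPM and 9.08, 29.0, 6.67 and 7.08 TPM in W/F. Its W/W call was lost without W/W T0901317 replicate 2, with a response of 1.02. The summed list ran 755 to 853, 1146 to 1523, 4957 to 6558 and 919 to 1716 TPM in the same order of groups. In the cell cycle list 24 of 26 genes had a lower difference (beside 53.2% of all genes), or 19 after rescaling (beside 24.1%), and 3 reversed, Ccnd1, Mcm2 and Mcm6, beside 2.18% of all genes in that direction. The number that reversed was 6 without W/F T0901317 replicate 2 and 1 without W/W T0901317 replicate 2, so it rests on these libraries. Ccnd1, cyclin D1, which carries cells into DNA synthesis, stood at 3.90, 10.9, 7.51 and 8.84 TPM and 42.6, 43.9, 52.6 and 39.4 TPM in W/W and at 90.8, 83.7, 70.7 and 74.7 TPM and 14.0, 26.7, 23.4 and 19.5 TPM in W/F. An antisense gene covers 23.4% of its exons. The groups did not overlap in either genotype. Endothelial markers held no reversing gene among 21, beside 3.05% of all genes, a share that in so short a list comes to few genes or none. The part that cell numbers play in these reversals was not tested.

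**Figure D4:**
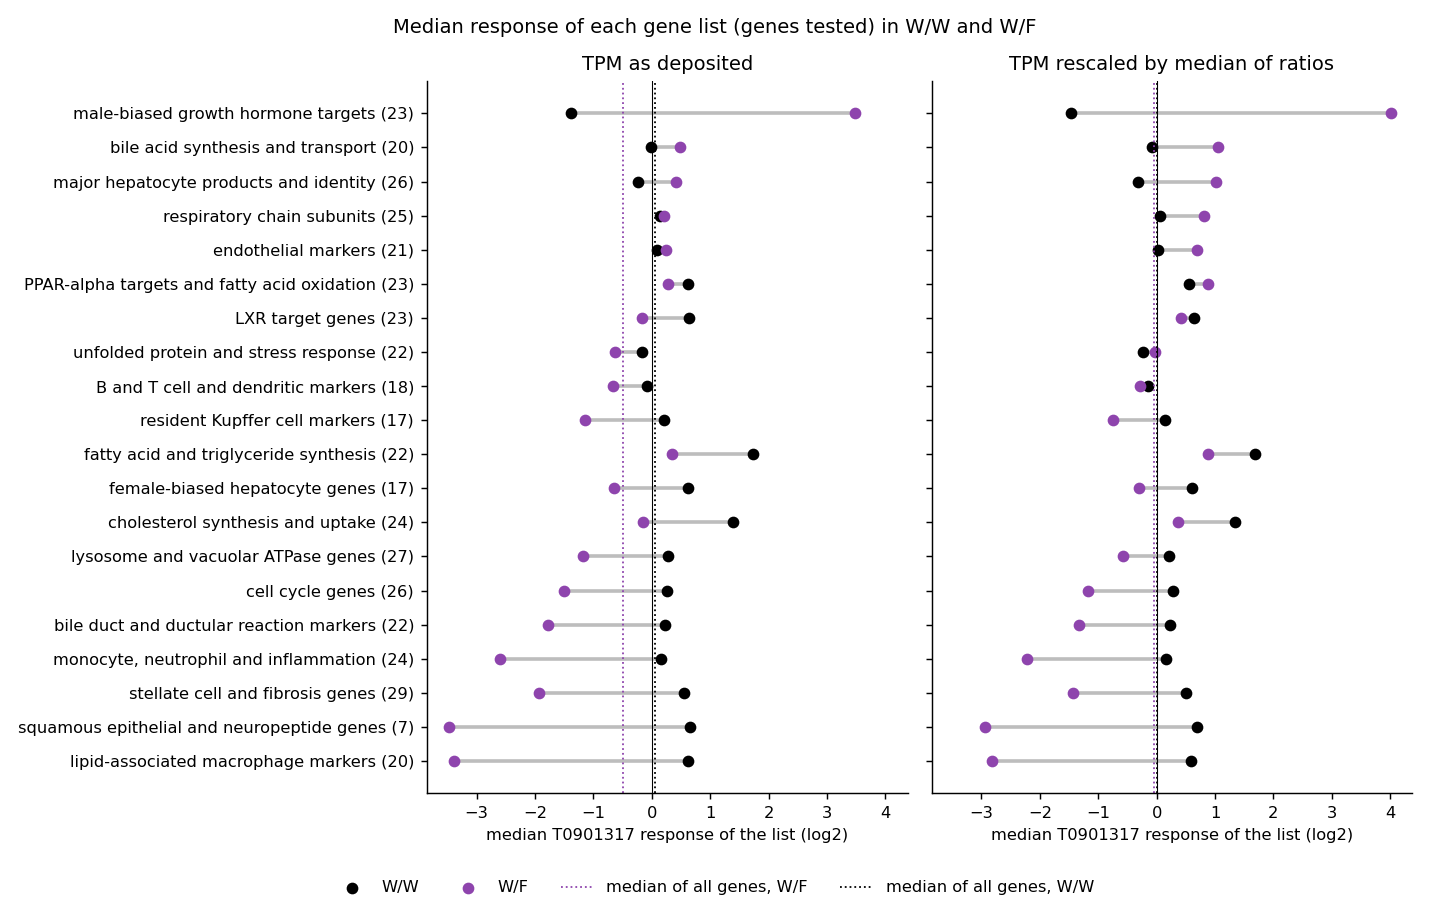
Median T0901317 response (log2) of each of 20 gene lists in W/W (black) and W/F (purple), as deposited (left) and rescaled (right), with the number of genes tested in brackets; dotted lines are the medians over all genes. The growth hormone list runs from -1.38 in W/W to 3.49 in W/F, and the lipid-associated macrophage list from 0.63 to -3.39.

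Several reversing genes were enzymes and transporters of hepatocytes themselves. Cyp2a4, a steroid hydroxylase that female mouse liver expresses more than male liver, rose from 2.08, 1.22, 1.80 and 0.791 TPM to 75.5, 174, 87.7 and 55.3 TPM in W/W. In W/F it went from 20.6, 90.8, 122 and 104 TPM to 9.67, 10.1, 2.68 and 2.63 TPM. The groups did not overlap in either genotype, but 38.0% of the 50-base stretches of this gene occur in another gene, so its reads may be shared with close relatives. Gstm3, a glutathione transferase of the mu family, stood at 19.8, 48.1, 24.2 and 41.2 TPM and 322, 1230.4, 243 and 317 TPM in W/W and at 2722, 2859, 2746 and 3417 TPM and 169, 992, 184 and 117 TPM in W/F, with 28.8% of its stretches shared. Replicate 2 was the highest library of both T0901317 groups. Abcc4, which exports bile acids and conjugates to the blood side of the hepatocyte, went from 0.45, 0.866, 0.791 and 0.754 TPM to 4.47, 7.29, 4.69 and 5.85 TPM in W/W and from 5.93, 16.6, 15.5 and 11.8 TPM to 1.47, 5.52, 1.72 and 1.41 TPM in W/F. Pdk4, the kinase that holds back pyruvate oxidation and a target of PPAR-alpha, went from 2.498, 3.11, 2.44 and 1.09 TPM to 19.8, 28.5, 9.38 and 8.63 TPM in W/W and from 4.87, 8.07, 10.1 and 11.0 TPM to 3.20, 1.46, 1.26 and 1.62 TPM in W/F. It was the 1 reversing gene among 23 PPAR-alpha targets and fatty acid oxidation genes, beside 3.05% of all genes, and none reversed without W/F T0901317 replicate 2. The difference of responses in this list was higher for 2 and lower for 9 as deposited (beside 5.27% and 53.2% of all genes) and higher for 11 and lower for 4 after rescaling (beside 19.7% and 24.1%). H2-Q1, a class I histocompatibility gene with 14.96% of its stretches shared, had responses of 2.45 ± 0.32 and -2.73 ± 0.32. Gm30692 and Gm11695, which have no assigned function here, had 1.84 ± 0.38 and -2.92 ± 0.38, and 1.99 ± 0.50 and -2.21 ± 0.50; Slc16a5 lies antisense over 25.6% of the exons of Gm11695.

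In the opposite direction, products of adult male liver fell with the agonist in W/W and rose with it in W/F. Growth hormone, released in pulses in males, keeps these genes high in male liver. Of 23 male-biased growth hormone targets tested, 12 fell and 1 rose in W/W, beside 2.91% and 7.87% of all genes. In W/F 18 rose and none fell, beside 6.59% and 59.3%. The difference of responses was higher in W/F for 20 and lower for none, beside 5.27% of all genes higher as deposited, and for 21 after rescaling, beside 19.7%. In the list, 9 reversed (C8b, Cyp2d9, Cyp2u1, Hsd3b5, Igf1, Mup21, Mup3, Serpina1e and Slco1a1), beside 0.871% of all genes in that direction. The number was also 9 without W/F T0901317 replicate 2 and 7 without W/W T0901317 replicate 2. The summed list was 46198 to 63425 TPM in W/W vehicle, 7083 to 20946 TPM in W/W T0901317, 10165 to 24909 TPM in W/F vehicle and 20400 to 61712 TPM in W/F T0901317. The W/W groups did not overlap and the W/F groups did, with W/F T0901317 replicate 2 the lowest of its group.

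Serpina1e, a serine protease inhibitor of the alpha-1-antitrypsin family (chr12:103946931-103958975), stood at 4530.3, 2221, 1983 and 7408 TPM with vehicle and 98.5, 61.9, 93.7 and 58.0 TPM with T0901317 in W/W. In W/F it stood at 822, 195, 158 and 331 TPM with vehicle and 1424, 1975, 7655 and 7138 TPM with T0901317. Its responses were -5.50 ± 0.57 and 3.54 ± 0.57, with no overlap, and 34.6% of its stretches occur in another gene. Mup3, a major urinary protein that carries pheromones (chr4:62083476-62087342), stood at 24512, 19414, 21873 and 25614 TPM with vehicle and 6419.7, 2469.9, 8807 and 5929.9 TPM with T0901317 in W/W. In W/F it stood at 897, 293, 256 and 709 TPM with vehicle and 14028, 6118, 18547 and 16977 TPM with T0901317. Of the 16 libraries the 4 of W/F vehicle were the lowest and the 4 of W/W vehicle the highest. F/F vehicle libraries lay lower still, and chow libraries of W/W and W/F stood at 16514 to 21358 and 19315 to 21894 TPM. Mup21, Mup1 and Mup12 reversed as well, with responses of -2.69 ± 0.54 and 4.23 ± 0.54, -2.63 ± 0.59 and 3.40 ± 0.59, and -2.20 ± 0.51 and 3.90 ± 0.51. Shared stretches make up 13.3% of Mup3, 19.3% of Mup21, 61.6% of Mup1 and 85.4% of Mup12, so values of single Mup genes are uncertain. Mup1 had 3 reads or fewer in each W/F vehicle library, so its fitted rise there depends on the constant added before the logarithm. Mup7 and Mup11 were not called in W/W, where they had -2.69 ± 1.05 and -2.07 ± 0.82, and their difference of responses was 9.50 ± 1.49 and 8.91 ± 1.16 (limma, adjusted p = 4.06e-06 and 2.76e-07).

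Slco1a1, an uptake transporter for organic anions and bile acids, stood at 139, 210.3, 145 and 202 TPM and 50.9, 24.6, 96.3 and 56.9 TPM in W/W and at 5.01, 2.74, 1.76 and 3.00 TPM and 72.8, 27.5, 147 and 171 TPM in W/F. Hsd3b5, a steroid dehydrogenase of male liver, stood at 213, 284, 257 and 311 TPM and 61.1, 7.40, 89.4 and 58.3 TPM in W/W and at 0.542, 0.152, 0.525 and 0.464 TPM and 30.7, 5.59, 234 and 235 TPM in W/F. The groups of both genes did not overlap, yet the W/W call of Hsd3b5 sat at the threshold and was lost in 12 of 16 refits without 1 library. Replicate 2 was the lowest library of both T0901317 groups for both genes. Serpina4-ps1, a pseudogene of the same protease inhibitor cluster, had responses of -3.22 ± 0.74 and 6.32 ± 0.74. Igf1, the growth factor through which growth hormone acts on other tissues, reversed with small responses of -0.51 ± 0.12 and 0.44 ± 0.12. Of 17 female-biased hepatocyte genes tested, 1 reversed, Cyp2a4, beside 3.05% of all genes. The difference was higher for 2 and lower for 7 (beside 5.27% and 53.2% of all genes), or 2 and 6 after rescaling (beside 19.7% and 24.1%). Sult2a8, a bile acid sulfotransferase on that list, was lowest in W/F vehicle among the 4 groups compared, with F/F vehicle libraries at 3.33 to 5.39 TPM. It stood at 600.2, 573, 493 and 651 TPM and 391.5, 257, 479 and 416 TPM in W/W and at 18.6, 17.3, 8.57 and 11.1 TPM and 525, 406, 616 and 695 TPM in W/F. Its W/W response was not called, and its difference was 5.88 ± 0.43 (limma, adjusted p = 2.05e-11). Its place on the female-biased list is uncertain, since it was high in the male W/W livers on vehicle. It is 1 of the 2 members with a higher difference.

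Slc22a7, an organic anion transporter of the sinusoidal membrane (chr17:46432183-46438457), stood at 70.2, 57.8, 31.6 and 61.5 TPM with vehicle and 4.50, 1.83, 3.85 and 3.17 TPM with T0901317 in W/W. In W/F it stood at 5.21, 2.46, 1.62 and 3.02 TPM with vehicle and 31.1, 18.5, 32.7 and 34.5 TPM with T0901317. The responses were -3.68 ± 0.28 and 2.92 ± 0.28, the groups did not overlap, and none of its 50-base stretches occurs in another gene. Of 26 hepatocyte genes 14 had a higher and 2 a lower difference in W/F, beside 5.27% and 53.2% of all genes. After rescaling the numbers were 19 and 1, beside 19.7% and 24.1%. In the list 4 reversed, Apoa1, Otc, Slc22a7 and Tdo2, or 2 without W/W T0901317 replicate 2, beside 0.871% of all genes in that direction. Cyp2e1, an ethanol and fatty acid oxidising cytochrome, was not called in W/W and rose in W/F, with a difference of 2.51 ± 0.35 (limma, adjusted p = 7.86e-07). In bile acid synthesis and transport 11 of 20 genes had a higher and 3 a lower difference, beside 5.27% and 53.2% of all genes. After rescaling the numbers were 14 and 1, beside 19.7% and 24.1%. Baat, which joins bile acids to taurine, Hsd3b7, of the synthesis pathway, and Slco1a1 reversed from falling to rising (beside 0.871% of all genes), and Abcc4 the other way (beside 2.18%). Cyp8b1, the sterol hydroxylase that yields cholic acid, stood at 346, 200.4, 284 and 291 TPM and 356, 218, 367 and 309 TPM in W/W and at 23.1, 25.6, 13.8 and 42.3 TPM and 224, 206, 424 and 287 TPM in W/F. Of the 4 groups compared W/F vehicle was the lowest, F/F vehicle libraries stood at 12.8 to 25.4 TPM, and the difference was 3.29 ± 0.44 (limma, adjusted p = 3.69e-07). Slc22a28, Gm3839 and Clec2h completed the 12 genes named in this direction, with W/F responses of 2.06 ± 0.36, 2.39 ± 0.32 and 1.64 ± 0.59. The W/F call of Clec2h was lost without W/F vehicle replicate 3, and 53.9% and 57.1% of the stretches of Slc22a28 and Gm3839 were shared.

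Seen by treatment, the gap between genotypes was larger on vehicle for most of the reversing genes as deposited, as it was for most genes tested. This view uses the same 16 libraries and is a description. The median gap of the 362, W/F minus W/W on the log2 scale, was 1.51 on vehicle and -0.48 with T0901317, or 1.01 and -0.50 after rescaling. That of the 145 was -0.93 on vehicle and 0.55 with T0901317, or -1.54 and 0.56 after rescaling. As deposited the larger gap was on vehicle for 328 of the 362 and 103 of the 145, beside 13469 of all 16638 genes. The share among the 145 was thus below that of all genes. W/F was called higher on vehicle for 361 of the 362 (beside 61.6% of all genes) and called lower with T0901317 for 168 (beside 6.23%), or 334 (beside 27.8%) and 207 (beside 8.38%) after rescaling. For the 145, W/F was called lower on vehicle for 137 (beside 6.83%) and higher with T0901317 for 96 (beside 3.65%), or 145 (beside 25.3%) and 95 (beside 5.1%) after rescaling. The order of the genotypes thus crossed, with both gaps called, in 167 of the 362 and 88 of the 145 genes, beside 598 of all 16638. After rescaling the numbers were 179 and 95, beside 668. Lpl, at 2.90 on vehicle and -2.82 with T0901317, and Slc22a7, at -3.80 and 2.80, are of this crossing kind.

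F/F libraries, which shared no sample with the responses that chose the genes, gave a further measure of the agonist's action. It is not fully independent, since these libraries entered the shared estimate of spread behind all calls. Of the 362 genes, 212 fell with T0901317 in F/F (58.6%, beside 31.2% of all genes) and 3 rose (beside 3.95% of all genes). After rescaling 76 fell (21.0%, beside 8.12%) and 5 rose (beside 8.28%). Of the 145 genes, 70 rose (48.3%, beside 3.95%) and 1, Cadm4, fell (beside 31.2%). After rescaling 93 rose (64.1%, beside 8.28%) and none fell (beside 8.12%). The direction of the called genes in F/F was thus mostly that of W/F. The median F/F response was -0.46 for the 362 and 0.34 for the 145, beside -0.24 for all genes, or -0.20, 0.57 and -0.02 after rescaling. Without F/F T0901317 replicate 3 the number of the 362 that fell was 119, and without F/F T0901317 replicate 4 the number that rose was 1. The 3 that rose in F/F as deposited were Pltp, Cyp2a4 and Gm42375, and the last 2 overlap on opposite strands.

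**Figure D5:**
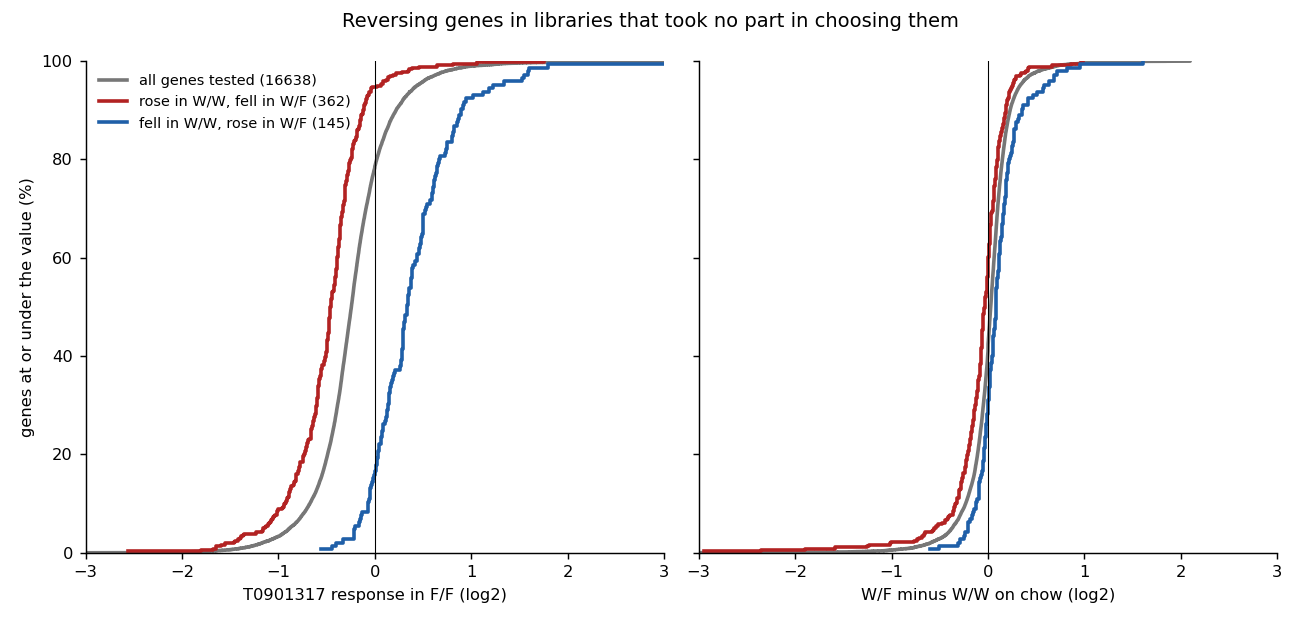
Share of genes (vertical, %) at or under a given log2 value for the T0901317 response in F/F (left) and for W/F minus W/W on chow (right), for all genes tested (grey), the 362 genes that rose in W/W but fell in W/F (red) and the 145 that did the reverse (blue). In F/F the red curve lies to the left of the grey one and the blue to the right, and on chow the 3 curves lie close together; the few values beyond the axis are not drawn.

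Pltp in F/F went from 14.1 to 24.0 TPM with vehicle to 33.9 to 50.6 TPM with T0901317, a rise of 1.06 ± 0.37 (limma, adjusted p = 0.0265), and so kept the W/W direction at a lower level. Cyp2a4 rose from 4.97 to 14.2 TPM to 25.0 to 60.4 TPM (1.76 ± 0.51; limma, adjusted p = 0.00876). Fabp5 fell from 118 to 157 TPM to 38.0 to 61.2 TPM (-1.38 ± 0.36; limma, adjusted p = 0.00471), the W/F direction. Col1a1 (-1.37 ± 0.39, limma, adjusted p = 0.00856), Spp1 (-1.64 ± 0.29, limma, adjusted p = 1.34e-04) and Cd63 (-1.10 ± 0.34, limma, adjusted p = 0.0143) also fell in F/F as deposited. After rescaling Cd63 had -0.83 and was not called (limma, adjusted p = 0.0642), whereas Col1a1 and Spp1 still were. Ly6d stayed high, at 576 to 1385 TPM with vehicle and 272 to 696 TPM with T0901317, and its F/F response did not pass (-0.94 ± 0.51; limma, adjusted p = 0.145). As deposited the F/F response also did not pass for Lpl (-0.36 ± 0.30, limma, adjusted p = 0.351) and Abcg1 (0.38 ± 0.24, limma, adjusted p = 0.204). After rescaling Abcg1 rose in F/F (0.64, limma, adjusted p = 0.0241), so its call depends on the scaling. Mup3 rose from 75.8 to 116 TPM to 839.8 to 1603 TPM (3.49 ± 0.40; limma, adjusted p = 2.13e-07) and Slc22a7 from 1.19 to 3.38 TPM to 4.23 to 6.52 TPM (0.94 ± 0.28; limma, adjusted p = 0.00974). Serpina1e, by contrast, stood at 147 to 459 TPM and 145 to 438 TPM (-0.14 ± 0.57; limma, adjusted p = 0.871). Of the macrophage, fibrosis, ductular and lysosome lists, 14 of 20, 19 of 29, 17 of 22 and 22 of 27 genes fell in F/F and none rose. Of 23 growth hormone targets 7 rose and none fell. Among all genes 31.2% fell and 3.95% rose in F/F as deposited, or 8.12% and 8.28% after rescaling. These list counts are as deposited, and the lists were not counted after rescaling. Their rescaled median F/F responses were, in the order given, -0.73, -0.49, -0.56, -0.34 and 0.56, beside -0.02 for all genes.

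On chow, without agonist or MASH diet, few reversing genes differed between W/F and W/W. Of the 362, 6 were lower in W/F (1.66%, beside 0.288% of all genes) and none was called higher (beside 0.198%), and of the 145, Obp2a was higher and Irf2 lower. After rescaling 12 of the 362 were lower (beside 0.409%). No higher call among the 362 was made by limma in the full set of libraries, and 1 was made in each of 3 refits without 1 chow library. The 6 were Fabp5, Pltp, Lpl, Mpeg1, Mr1 and Atg16l2, the first 3 of which are the lipid genes described above. Fabp5 stood at 61.1 to 122 TPM in W/W and 4.09 to 21.7 TPM in W/F on chow, a difference of -2.94 ± 0.36 (limma, adjusted p = 1.45e-05). Pltp stood at 33.9 to 120.2 TPM and 6.60 to 26.2 TPM (-2.35 ± 0.37; limma, adjusted p = 3.92e-04), and Lpl at 6.79 to 16.1 TPM and 1.46 to 2.32 TPM (-1.89 ± 0.30; limma, adjusted p = 4.47e-04). These 3 genes were therefore lower in W/F than in W/W on chow. On the MASH diet with vehicle they were higher in W/F as deposited, and after rescaling Fabp5 and Lpl were, whereas the gap of Pltp was 0.68 (limma, adjusted p = 0.112). Ly6d, Sprr1a, Serpina1e and Mup3 did not pass on chow (limma, adjusted p = 1 for each). Of 24 genes of cholesterol synthesis and uptake, 11 were higher in W/F on chow and none was lower, beside 0.198% and 0.288% of all genes. Among the 11 was Sqle, at 53.8 to 87.1 TPM in W/W and 116 to 163 TPM in W/F (0.99 ± 0.17, limma, adjusted p = 0.00104).

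Promoters of the reversing genes were searched on both strands for 3 motifs, from 250 bases before to 50 bases after the RefSeq start (GRCm38.p6). They were available for 259 of the 362 and 113 of the 145 genes. The motif TGANTCA, bound by AP-1 factors, was in 6.95% of the 259, 13.3% of the 113 and 6.74% of 10846 genes tested, and in 7.81% of all 32851 promoters. TTCNNNGAA, bound by STAT factors downstream of growth hormone, was in 7.72%, 10.6% and 8.42%, and in 8.30% of all promoters. The strict DR4 element of LXR, 2 copies of AGGTCA on 1 strand with 4 bases between them, was in none of these genes and in 0.0152% of all promoters. The 250 bases before the start of Sprr1a and Clec2h are shown because they were the only genes with any match in those bases among 13 genes. These 13 were the ones with an entry, of the 24 ranked highest by the smallest of the 4 responses (2 genotypes, 2 scalings). Sprr1a and Clec2h came 1 from each direction. Capitals mark the TGANTCA matches, which begin 146 and 116 bases before the start in Sprr1a and 83 bases before it in Clec2h.
Sprr1a, chr3:92485882-92486131, minus strand: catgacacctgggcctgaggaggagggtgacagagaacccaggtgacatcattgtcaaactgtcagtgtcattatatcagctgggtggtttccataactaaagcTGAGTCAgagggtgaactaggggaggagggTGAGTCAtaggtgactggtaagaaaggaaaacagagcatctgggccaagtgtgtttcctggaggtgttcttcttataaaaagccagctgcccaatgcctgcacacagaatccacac
Clec2h, chr6:128662135-128662384, plus strand: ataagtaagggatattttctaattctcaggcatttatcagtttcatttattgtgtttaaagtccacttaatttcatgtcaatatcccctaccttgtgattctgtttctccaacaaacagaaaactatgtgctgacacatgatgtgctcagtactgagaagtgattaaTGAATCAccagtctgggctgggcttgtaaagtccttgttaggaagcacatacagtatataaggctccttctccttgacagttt
A match is a description of these letters and not a shown binding site.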

How the data were processed

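Liver polyA RNA of 36 libraries was sequenced, and the authors deposited 1 table of TPM values per gene, whose columns sum to 1e+06. Per the submitters' processing notes the builds are GRCm38 and mm10 and the tools include Trimmomatic 0.36, STAR 2.5.2b and featureCounts from Subread 1.5.2. The annotation and strand setting are not given in the sources used here. Because TPM are not counts, log2(TPM + 1) was fitted with limma 3.58.1 (trend) in R 4.3.3 on 9 group means over 36 libraries, for the 16638 of 49315 genes at 1 TPM or more in at least 4 libraries, with Benjamini-Hochberg adjustment over all genes tested. Rescaling used the median of ratios over 13950 genes. The difference of responses was the W/F response minus the W/W response. Log2 differences understate the change of low genes. Depth in reads was recovered from the spacing of low values. It limits values near 0 TPM, and no interval was drawn from it. The fit was tested on simulated data. Genes named are the 12 ranked highest per direction, fixed LXR and pathway genes, and members of the 20 lists. The ranking took the smallest of 4 absolute responses (2 genotypes, 2 scalings) of genes with a group mean of at least 5 TPM. Members and lists were chosen with earlier results of these data known. Coordinates are from GENCODE M21 and promoters from RefSeq (GRCm38.p6). Alternatives were another pseudocount, other filters, array weights, rescaling, the 16 libraries alone, a replicate block and leaving out each library.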

Additional observations from a re-analysis of the deposited data

Results flagged for a closer look

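The difference of T0901317 responses between W/F and W/W passed the test (limma, adjusted p under the threshold over all genes) in 9726 genes. Among named genes, the reversing ones were chosen on these 2 responses, so their differences on the log2 scale are descriptions.

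Of those lower in W/F, Ly6d had -10.78, Sprr1a -8.80, Cyp2a4 -8.72, Gstm3 -7.27, Fabp5 -7.00 and Slpi -6.02. Lpl had -5.73, Cd63 -5.61, Col1a1 -5.30, H2-Q1 -5.18, Pltp -5.06, Anxa2 -4.95 and Col3a1 -4.84. Gm30692 had -4.77, Ccnd1 -4.36, Spp1 -4.28, Gm11695 -4.20, Mvd -4.15, Pdk4 -4.02, Abcc4 -3.91 and Abcg1 -2.67. Of those higher in W/F, Serpina4-ps1 had 9.53, Serpina1e 9.04, Hsd3b5 8.06, Mup21 6.92, Mup3 6.86 and Slc22a7 6.60. Slco1a1 had 6.15, Mup12 6.10, Mup1 6.04, Clec2h 4.38, Gm3839 4.22 and Slc22a28 3.74.

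Genes that did not reverse also differed between the genotypes by the test of the difference. Gpnmb had -6.61, Lcn2 -6.52, Timp1 -5.55, Scd2 -4.95, Cyp4a31 -4.36, Pnpla3 -4.14, Sqle -3.78 and Fdps -3.15. Mylip had -1.08, Abca1 -0.95 and Nr1h2 -0.60, and all 3 calls were lost after rescaling, where Nr1h2 had 0.05 (limma, adjusted p = 0.753). Mup7 had 9.50, Mup11 8.91, Sult2a8 5.88, Cyp8b1 3.29, Thrsp 3.04, Cyp2e1 2.51, Srebf1 1.79, Abcg8 1.63 and Abcg5 1.30.

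Single libraries stood apart from the other 3 of their group, with a gap past Dixon's critical value, in 29 of 232 checks over 58 genes, where chance gives about 1 in 20. Of the 29, 13 were W/F T0901317 replicate 2, with Lcn2 at 471 TPM, Gstm3 at 992, Cd63 at 173, Gpnmb at 37.7, Pltp at 35.0, Ly6d at 32.1 and Abcg1 at 31.8. It also had Anxa2 at 29.0, Col1a1 at 27.5, Slpi at 15.6, Timp1 at 6.18, Mvd at 6.16 and Abcc4 at 5.52 TPM. A further 7 were W/W T0901317 replicate 2, with Gstm3 at 1230.0 TPM, Mup21 at 94.6, Cd63 at 91.1, Anxa2 at 36.4, Lcn2 at 28.1, Sprr1a at 26.8 and Mup12 at 2.57. W/W vehicle replicate 4 had Cd63 at 27.8 TPM, Col1a1 at 8.44 and Gpnmb at 3.05, and W/W vehicle replicate 1 had Spp1 at 55.4. W/F vehicle replicate 1 had Thrsp at 82.6 TPM, Fasn at 28.8 and Slc22a28 at 1.41, W/F vehicle replicate 2 had Abcg8 at 55.7, and W/F T0901317 replicate 1 had Fasn at 94.7.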

How the results depend on the processing

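Rescaling left 441 genes that fell in W/W but rose in W/F, and the deposited scaling alone, an alternative chosen after seeing the data, left 758 that rose in W/W but fell in W/F. On rescaled values, 76 of the 362 fell and 5 rose in F/F, 0 of the 145 fell in F/F, and 12 of the 362 were lower on chow. Array weights gave 12 of the 362 lower and 3 of the 145 higher on chow, and a pseudocount of 0.1 gave 0 of the 145 higher. Leaving out 1 library at a time gave 229 to 445 genes that rose in W/W but fell in W/F and 93 to 158 of the opposite kind. It gave 9033 to 9877 genes for the difference of responses. In F/F it gave 119 to 229 of the 362 lower, 1 to 3 higher, and 0 to 1 of the 145 lower. On chow it gave 4 to 8 of the 362 lower, 0 to 1 higher, and 0 to 1 of the 145 higher. The cause was not tested. The difference of responses of Nr1h3 changed sign without 1 library at a time, within a range of -0.0382 to 0.0908, and was -0.0382, -0.0305, -0.0231, -0.019, -0.012, -0.0218, -0.0268 and -0.0038 in 8 of them and 0.674 rescaled. Rescaling gave 0.0471 for Nr1h2 and 0.3131 for Lpcat3, which turned both, 1.0842 for Scd1, -0.3025 for Abca1 and -0.4509 for Mylip. Of the settings run on single named genes, 1320 kept direction and call. Of 24 pairs of same-numbered libraries, 7 had a correlation of deviations over 0.1 (median 0.051), against 8 of 72 differently numbered pairs (median -0.017), so not every pair did and the numbers were not taken to pair samples. With a replicate block, 395 and 152 genes reversed, 9763 passed for the difference of responses, and no count moved by over 1.5 times. Depth limits genes near 0 TPM, such as Mup1 in W/F vehicle. The 4 libraries a group, the 2 libraries that stand apart, and TPM closed to a fixed total limit all counts.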

Other observations

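Genes outside the lists above also reversed, and those named here were picked after their values were seen, so the values are descriptions. The growth hormone receptor Ghr had a T0901317 response of -0.49 ± 0.14 (SE) in W/W and 0.90 ± 0.14 in W/F on the log2 scale. Igfals, the liver-made subunit that keeps IGF-1 in the circulation, had -0.85 ± 0.18 and 1.43 ± 0.18. Hsd11b1, which regenerates active glucocorticoid, had -1.34 ± 0.20 and 1.00 ± 0.20. Fbp1, an enzyme of gluconeogenesis, had -0.39 ± 0.11 and 0.37 ± 0.11, and Agxt, which clears glyoxylate, had -0.70 ± 0.16 and 0.95 ± 0.16. Among secreted products of the hepatocyte, Rbp4, the retinol carrier, had -0.53 ± 0.14 and 0.57 ± 0.14, Lcat, which esterifies cholesterol in plasma, had -0.60 ± 0.08 and 0.45 ± 0.08, and Plg, plasminogen, had -0.35 ± 0.09 and 0.38 ± 0.09. These responses are small beside those of Serpina1e or Mup3.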
